A study of Mus musculus with 48 samples.

Results

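The genes described here were the axon guidance ligands and receptors of the semaphorin, plexin, neuropilin, ephrin, Eph, Slit, Robo, netrin and netrin receptor families. They were chosen by symbol, as protein-coding genes named Sema, Plxn, Efna, Efnb, Epha or Ephb with a number or letter, together with Robo1 to Robo4, Slit1 to Slit3, Unc5a to Unc5d, Ntn1, Ntn4, Dcc, Neo1, Nrp1 and Nrp2. The rule used symbols only, although the set was proposed with earlier results of these data known. It gave 68 genes of the 37620 in the deposited gene table, and 1372 of the 247845 rows of the exon table. They were 20 semaphorins, 9 plexins, 2 neuropilins, 8 ephrins, 14 Eph receptors, 3 Slits, 4 Robos, 2 netrins and 6 netrin receptors.

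The study measured poly(A) RNA of the nucleus accumbens shell, which is part of the ventral striatum and of the reward circuit, cut out by laser microdissection. The 48 mice came from heterogeneous stock-collaborative cross (HS-CC), an outbred stock, at selection generation 4 of breeding toward higher or lower ethanol preference. They formed 4 groups of 12, which were females and males of the high-preference line (High) and females and males of the low-preference line (Low). All groups shared the stock, and no separate unselected group is analysed here. Each line was 1 selected population, the sources used here give neither age nor family, and p-values therefore measure the spread between these mice.

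Axon guidance cues are secreted or membrane-bound proteins that steer growing axons by attraction or repulsion, and in the adult brain many of them continue to act at synapses. Semaphorins signal through plexins, with neuropilins as co-receptors for most secreted class 3 semaphorins. Ephrins bind Eph receptor tyrosine kinases on neighbouring cells and both sides can signal, Slits repel through Robo receptors, and netrins attract through Dcc and neogenin or repel through the Unc5 receptors.

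The libraries had similar deposited totals, from 13579559 to 14561911 normalised counts, and 19708 to 20888 genes with a value above 0. Normalised counts are the deposited unit, and they were not raw reads, so no counting interval was attached to a value. The tissue label was met by the defining markers of striatal spiny projection neurons: the phosphatase inhibitor gene Ppp1r1b lay between 19811 and 35073 normalised counts and the dopamine receptor gene Drd1 between 1909 and 3607 over all mice. Of the markers of cortical pyramidal neurons, Slc17a7 lay between 2 and 3886 and Neurod6 between 0 and 241, whereas Nrgn (1559 to 4621), Cux2 (258 to 679) and Rasgrf2 (97 to 698) were present in every mouse. Oligodendrocyte markers summed to between 9175 and 24803 in High and between 13569 and 25235 in Low, and all 12 of them had a log2 difference below 0 (High minus Low), 9 of 12 at an unadjusted p under 0.05 (limma), against 9.07% of all genes, and 0 called at an adjusted p under 0.05, against 0.28%. In bulk tissue, fewer cells of a type and less RNA per cell cannot be told apart.

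Levels were compared between genes only per length, as normalised counts per kb of merged exons. The full merged length was used, although the last exon held a median of 65.7% of a member's signal. Orders per kb therefore depend on this division, and undivided values can reverse them. In High female replicate 1, Neo1 had 1408 normalised counts and Unc5a 874, and Slit2 had 799 and Slit1 408. Per kb, Unc5a and Slit1 had the higher means. Ephrins and semaphorins held the largest shares of the summed level per kb of the 68 genes, at 25.5% and 23.2%, followed by Eph receptors at 16.3% and plexins at 14.4%. Netrin receptors held 9.47%, netrins 4.23%, Slits 3.43%, Robos 2.15% and neuropilins 1.35%. In most families 1 or 2 members accounted for much of the level: Efnb3 alone held 58.5% of the ephrin sum, Ntn1 87.4% of the netrin sum and Nrp1 82% of the neuropilin sum. In contrast, the highest plexin and the highest Eph receptor held 20.3% and 23.1% of their family sums.

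**Figure D1:**
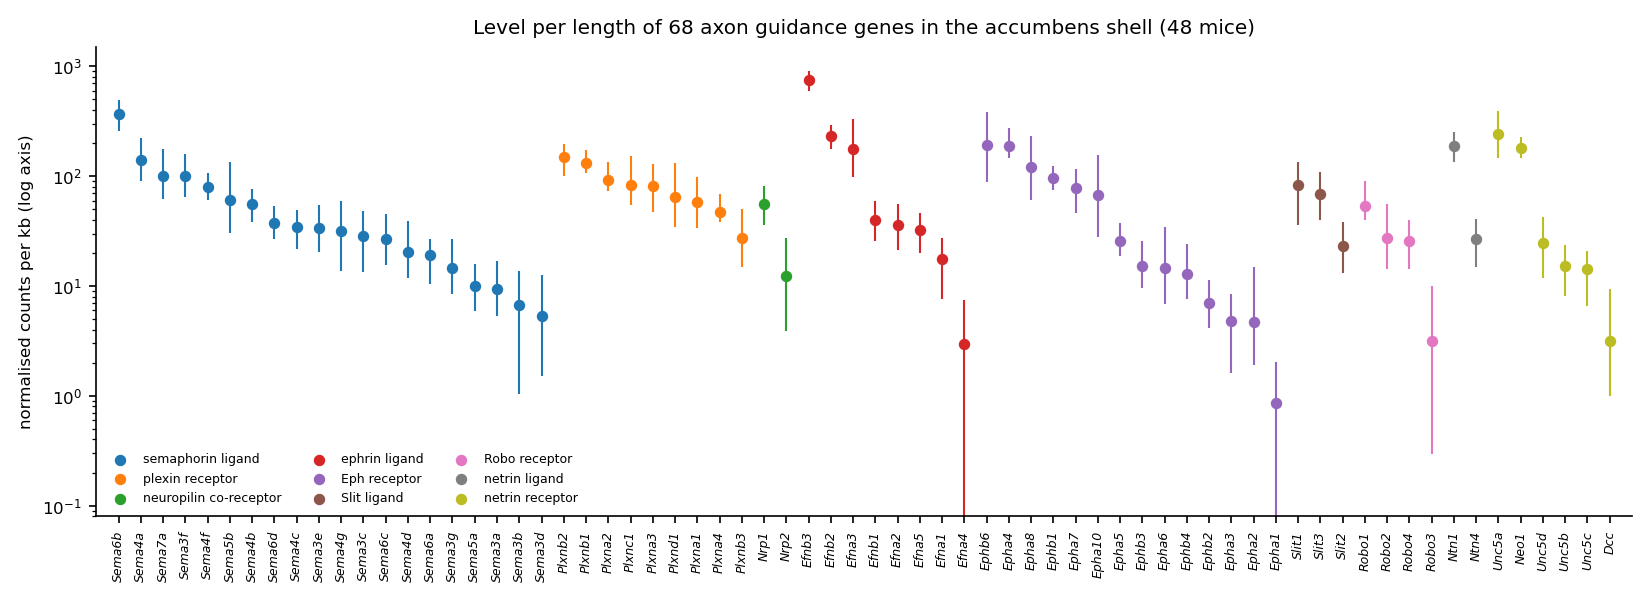
Each point is the mean level per length (normalised counts per kb of merged exons, log axis) of 1 of 68 genes over 48 mice, coloured by family and ordered by level within it, and each bar runs from the lowest to the highest mouse. Efnb3 stands highest at 759 and Epha1 lowest at 0.854; the bars of Epha1 and Efna4, listed at 0 in 2 mice and 1 mouse, run to the lower edge.

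Among semaphorins, the transmembrane cue Sema6b was highest, at 366 ± 51.5 normalised counts per kb (SD, n = 48), and the secreted Sema3d was lowest at 5.31 ± 2.03. Sema6b was the highest semaphorin in 48 of 48 mice, and its range did not overlap that of the next, Sema4a, at 139 ± 34.7. The next pair, Sema7a, a lipid-anchored semaphorin, and Sema3f, a secreted one, did not differ beyond their spread, at 100 ± 26.3 and 100 ± 20.8, and Sema7a was above Sema3f in 23 of 48 mice. Of the class 3 members, Sema3f was highest, and Sema3a, Sema3b and Sema3d were, with the transmembrane Sema5a, the 4 semaphorins below 10 normalised counts per kb.

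Plexins, the semaphorin receptors, ran from Plxnb2 at 149 ± 23 normalised counts per kb to Plxnb3 at 27.6 ± 7.73 (SD, n = 48). Plxnb2, a B-class plexin that binds class 4 semaphorins, was the highest in 39 of 48 mice and Plxnb1 in 8. Plxnc1, the receptor for Sema7a, and Plxna3, an A-class plexin, were neighbours at 82.6 ± 19.7 and 81.2 ± 22.3 and did not differ beyond their spread. Of the neuropilin co-receptors, Nrp1 measured 56.1 ± 10.9 and Nrp2 12.3 ± 6.14 normalised counts per kb, and their ranges did not overlap.

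Efnb3, a transmembrane ephrin, had the highest level per kb of all 68 genes, at 759 ± 68.3 (SD, n = 48). Efnb2, another B ephrin, followed at 233 ± 25, and then the lipid-anchored Efna3 at 177 ± 40.3. Ranges did not overlap between Efnb3 and Efnb2, nor between Efna3 and Efnb1 at 39.5 ± 7.29. Efna4 was lowest at 2.94 ± 1.71, listed at 0 in 1 mouse and below the limit for testing.

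Eph receptors ran from Ephb6 at 191 ± 64.5 normalised counts per kb to Epha1 at 0.854 ± 0.465 (SD, n = 48). Ephb6, a member whose kinase domain is inactive, and Epha4, a receptor for both ephrin classes, had nearly the same mean (188 ± 25.2 for Epha4). They differed in spread, and Epha4 was the highest Eph receptor in 31 of 48 mice, Ephb6 in 15 and Epha8 in 2. Epha1 was listed at 0 in 2 mice and was not tested.

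Among the secreted Slits, Slit1 measured 82.5 ± 26.1, Slit3 68.5 ± 17.6 and Slit2 23.2 ± 5.98 normalised counts per kb (SD, n = 48). Slit1 and Slit3 overlapped, with Slit1 the higher in 38 of 48 mice, whereas the ranges of Slit3 and Slit2 did not overlap. Of the Slit receptors, Robo1 measured 53 ± 9.45 and was the highest Robo in 48 of 48 mice, Robo2 27.6 ± 5.91, Robo4, known from endothelial cells, 25.6 ± 6.47, and Robo3, known from commissural axons, 3.14 ± 2.05. Robo2 was above Robo4 in 31 of 48 mice.

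Ntn1, the secreted netrin that attracts or repels axons, measured 188 ± 23.9 normalised counts per kb and Ntn4, a netrin of basement membranes, 27 ± 6.25 (SD, n = 48), with ranges that did not overlap. Of the netrin receptors, the repulsive receptor Unc5a was highest at 243 ± 55.4 and the highest of its family in 44 of 48 mice. Neogenin (Neo1) was highest in the other 4, at 181 ± 17.1. The attractive receptor Dcc was lowest, at 3.14 ± 1.52, although all mice had a value above 0, between 13 and 124 normalised counts. Over all families, 9 of 59 neighbouring pairs in the order of levels had ranges that did not overlap between genes.

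Summed over a family, levels per kb differed little between lines and between genders relative to the spread of mice. The ephrin sum was 1319 ± 116 in High and 1277 ± 107 in Low (SD, n = 24 each), and 1280 ± 92.8 in females and 1316 ± 128 in males. Semaphorins summed to 1151 ± 125 in High against 1205 ± 149 in Low, and Eph receptors to 809 ± 105 against 844 ± 142. For plexins the sums were 729 ± 99.2 in High and 737 ± 72 in Low. Slits had the widest relative spread of any family sum, with a coefficient of variation of 22.2% over 48 mice, and ephrins the narrowest at 8.65%. These sums were not tested.

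The spread between mice of the same group was described by the SD of log2 values after the group means were removed, with its percentile among 15350 tested genes. Genes were tested where they reached 1 ppm of the mean column total (14.1 normalised counts) in at least 12 libraries, which 66 of 68 members did. Nrp2 varied most, with an SD of 0.70 at percentile 97.1. The next were the Eph receptor Epha10 at 0.57, Slit1 at 0.51, Sema4g at 0.50 and Ephb6 at 0.48, among members with a mean of at least 5 ppm. The smallest spreads belonged to Efnb3 at 0.13 (percentile 9.21), Neo1 at 0.13 and Plxna4 at 0.16. The spread exceeded the median of all tested genes in 51 of 66 members; spread depends on level, and no matched comparison was made.

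Nrp2 showed this spread in both lines. It lay between 68 and 322 normalised counts in High, with a median of 152, and between 46 and 247 in Low, with a median of 130. High and Low overlapped over most of this range. Its log2 difference of 0.32 ± 0.194 (SE) had the widest 95% interval of the 66 line differences, from -0.07 to 0.71.

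The line comparison asked whether any guidance gene differed between mice bred for high and for low ethanol preference. By limma, 0 of 66 members passed at an adjusted p under 0.05 (Benjamini-Hochberg), against 0.28% of all tested genes. At an unadjusted p under 0.05 there were 4 of 66 members, 3 higher and 1 lower in High, against 9.07% of all genes. The log2 difference was above 0 in 31 members and below 0 in 35, against 48.5% above 0 over all genes, and the median was -0.03 against -0.0028 over all genes. No member had lines whose ranges did not overlap, but this was not counted over all genes and is not read as a result about the members. The 95% interval of the line difference lay within 0.5 of 0 on the log2 scale for 64 of 66 members and within 0.25 for 31.

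**Figure D2:**
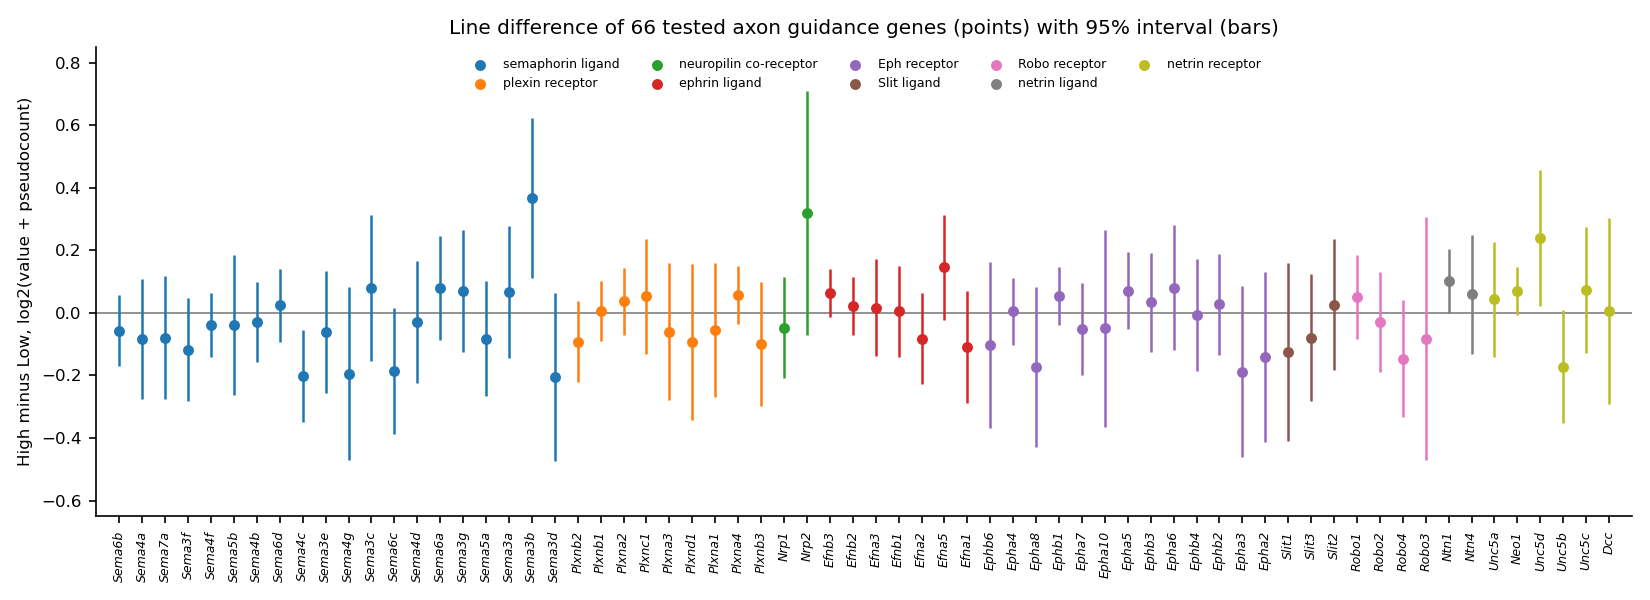
Points show the log2 difference (High minus Low, averaged over genders) of 66 tested guidance genes and bars its 95% interval, with genes ordered as by level within each family. Most intervals cross 0; Sema3b at 0.37, Unc5d at 0.24 and Ntn1 at 0.10 lie above it and Sema4c at -0.20 below, none of them called after adjustment over all genes.

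Sema3b, a secreted semaphorin of the class that signals through neuropilins, had the smallest p. Its listed exons (ENSMUSG00000057969) start between 107500005 and 107511452 on chromosome 9 of mm9, minus strand. It lay between 17 and 65 normalised counts in High, with a median of 32, and between 5 and 66 in Low, with a median of 28. The lines overlapped almost completely in range, though 18 of 24 High values were over the median of Low. The log2 difference was 0.37 ± 0.127 (SE, limma adjusted p = 0.276). Because Sema3b was weakly expressed, the pseudocount moved this difference, to 0.46 with 0.1 ppm and 0.22 with 2 ppm.

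Sema4c, a transmembrane semaphorin that binds Plxnb2, lay between 100 and 228 normalised counts in High, with a median of 147, and between 120 and 200 in Low, with a median of 170. The Low range lay inside the High range, and 4 of 24 High values were over the median of Low. The log2 difference was -0.20 ± 0.074 (SE, limma adjusted p = 0.312) and -0.13 (adjusted p = 0.603) with the astrocyte marker score as a covariate, a covariate added after seeing the data. The 9 astrocyte markers were all above 0 in the same contrast, with a median of 0.11. Whether they account for the difference of Sema4c was not tested. Its exons (ENSMUSG00000026121) start between 36605487 and 36614861 on chromosome 1, minus strand, and 6.62% of its words of 25 bases are shared with D430040D24Rik, so that its value is uncertain.

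Unc5d, a repulsive netrin receptor (ENSMUSG00000063626, chromosome 8, exon starts 29757189 to 30329714, minus strand), lay between 142 and 394 normalised counts in High and between 108 and 305 in Low, with medians of 252 and 210. The highest values were those of High mice, but the ranges overlapped. Its log2 difference was 0.24 ± 0.108 (SE, limma adjusted p = 0.473), and 16 of 24 High values were over the median of Low. Ntn1 (ENSMUSG00000020902, chromosome 11, exon starts 68022866 to 68214231, minus strand) lay between 912 and 1595 in High and between 845 and 1365 in Low, with medians of 1217 and 1146. It differed by 0.10 ± 0.050 (SE, limma adjusted p = 0.543), and 17 of 24 High values were over the median of Low.

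By family, semaphorins had 14 of 20 members below 0 in the line comparison, with a median of -0.05, and plexins 5 of 9, also with a median of -0.05. Ephrins had 5 of 7 tested members above 0 (median 0.02), Eph receptors 6 of 13 (median -0.01), Slits 1 of 3, Robos 1 of 4, netrins 2 of 2 and netrin receptors 5 of 6 (median 0.06). Of the neuropilins, Nrp1 had -0.05 and Nrp2 0.32.

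In females alone, 0 of 66 members were called by limma, against 0.0261% of all genes, and 2 of 66 had an unadjusted p under 0.05, against 4.68%. The female line difference was above 0 in 29 members, against 48.8% of all genes. Sema3b lay between 17 and 49 normalised counts in High females and between 5 and 42 in Low females, with medians of 31 and 23. In 11 of 12 High females it exceeded the Low female median, and its log2 difference was 0.55 ± 0.18 (SE, adjusted p = 0.638). Unc5b, a repulsive netrin receptor also known from blood vessels, lay between 51 and 132 in High females and 76 and 135 in Low females, with medians of 79.5 and 103. It was above the Low female median in 2 of 12 High females (log2 difference -0.28 ± 0.127, adjusted p = 0.9998). The remaining members with the smallest p were Efna3 at -0.19 and Ntn1 at 0.12.

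In males alone, 0 of 66 members were called by limma, against 0% of all genes. At an unadjusted p under 0.05 there were 4 of 66, against 6.93% of all genes, and 37 members lay above 0, against 50% of all genes. Sema4c lay between 100 and 228 normalised counts in High males and between 140 and 200 in Low males, with medians of 132 and 167. High males held both the lowest and the highest values of Sema4c, and the log2 difference was -0.25 ± 0.104 (SE, adjusted p = 0.642). Epha6, a receptor for A ephrins, lay between 58 and 182 in High males and between 36 and 107 in Low males, with medians of 78.5 and 66. Its log2 difference was 0.31 ± 0.14 (SE, adjusted p = 0.685), and its highest value was that of High male replicate 1. Without that library, in which last exons held the smallest share of signal, the difference was 0.21 and 1 of 66 members, Sema4c, had an unadjusted p under 0.05.

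The line difference itself was compared between genders. By limma, 0 of 66 members were called, against 0% of all genes, and 3 of 66 had an unadjusted p under 0.05, against 2.4%. The largest of these was the transmembrane semaphorin Sema5b (ENSMUSG00000052133, chromosome 16, exon starts 35541231 to 35664599). It lay between 217 and 955 normalised counts in High females, between 254 and 577 in Low females, between 232 and 457 in High males and between 275 and 663 in Low males. Medians were 479, 384, 355 and 404 in that order, so that High females and Low males were the higher groups, with overlap of all 4. The High minus Low difference was 0.26 in females and -0.33 in males, and these differed by 0.59 ± 0.223 (SE, adjusted p = 0.9998).

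For Efna3 the pattern was opposite. It lay between 240 and 442 normalised counts in High females, 323 and 547 in Low females, 364 and 806 in High males and 273 and 616 in Low males. Medians were 376, 416, 466 and 427, lowest in High females and highest in High males. The High minus Low difference was -0.19 in females and 0.23 in males, a difference between genders of -0.42 ± 0.155 (SE, limma adjusted p = 0.9998). Efna3 (ENSMUSG00000028039, chromosome 3, exon starts 89117821 to 89126628, minus strand) shares 11.2% of its words of 25 bases with Gm15998, and its value is uncertain for that reason.

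**Figure D3:**
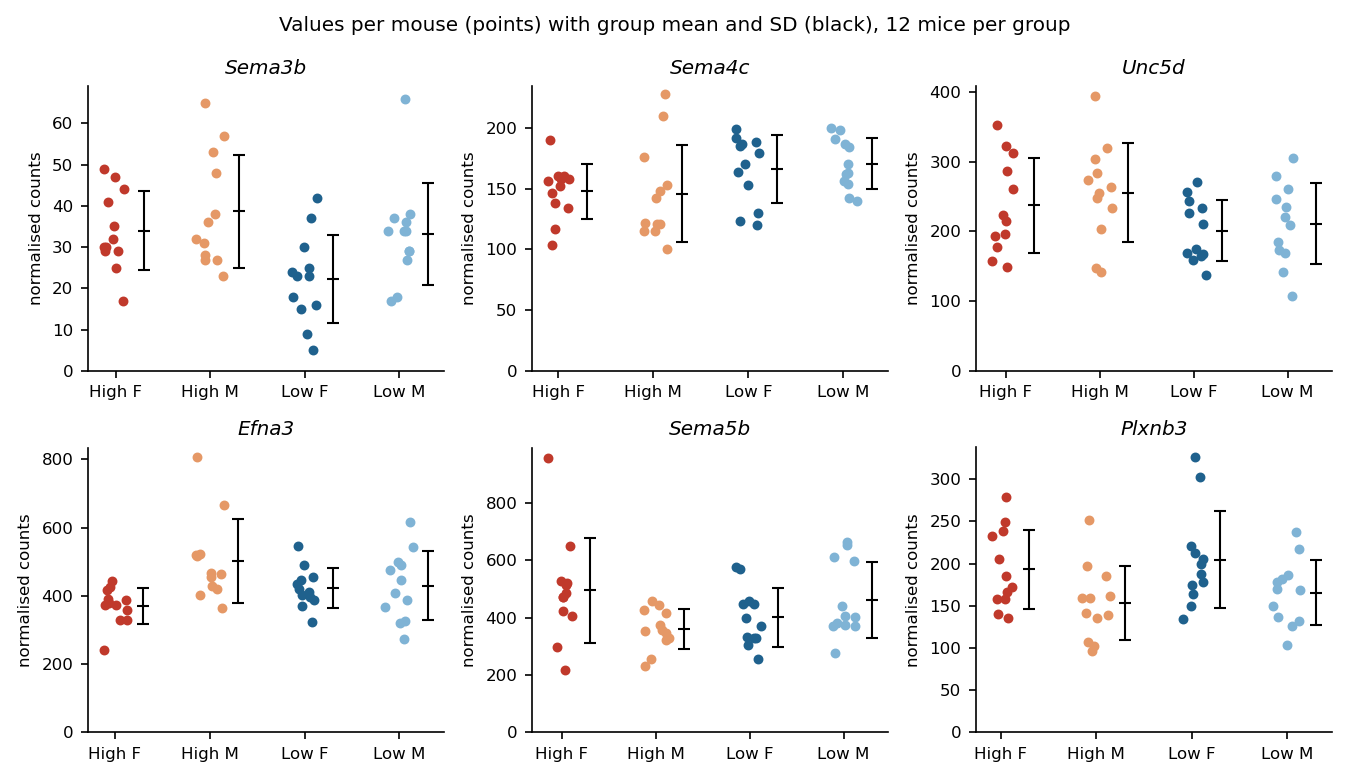
Each panel plots 1 gene, in normalised counts from 0, with 1 point per mouse in 4 groups of 12 and the group mean and SD in black. Groups overlap in every panel; Sema5b is spread most widely in High females, where 1 mouse reaches 955, and Efna3 is lowest in High females and highest in High males.

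Females were next compared with males, averaged over the lines. By limma, 0 of 66 members were called, against 0.0782% of all genes, and 4 of 66 had an unadjusted p under 0.05, against 4.21%. Plxnb3, a plexin on the X chromosome that binds Sema5a, had the smallest p. It lay between 134 and 326 normalised counts in females and between 97 and 251 in males, with medians of 187 and 159. Female values reached higher in both lines, with 18 of 24 females above the male median, and the log2 difference (females minus males) was 0.31 ± 0.099 (SE, adjusted p = 0.97). With the astrocyte marker score as a covariate, added after seeing the data, it was 0.37 and passed at an adjusted p of 0.0489, when 83 genes in all were called instead of 12.

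The other X-linked members gave smaller differences, 0.18 ± 0.109 for Plxna3 and -0.0036 ± 0.072 for Efnb1 (SE), the latter of either sign depending on the processing. Efna3 measured 397 ± 61.1 in females and 466 ± 116 in males (SD, n = 24 each), with 2 of 24 females above the male median and a log2 difference of -0.21 ± 0.077 (SE, limma adjusted p = 0.982). Sema3b measured 28.1 ± 11.6 in females and 36 ± 13.1 in males, a difference of -0.32 ± 0.127. Ephb3, an Eph receptor for the B ephrins, measured 95.9 ± 21.4 and 107 ± 20.5 (difference -0.16 ± 0.079). The 95% interval of the gender difference lay within 0.5 of 0 on the log2 scale for 64 of 66 members. Across the 4 groups the ratio of the highest to the lowest group mean had a median of 1.12 over 66 members, from 1.03 for Efnb2 to 1.74 for Sema3b.

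Variability between mice was compared between lines by absolute deviations from the group median. By limma, 0 of 66 members were called, against 0.0586% of all genes, and 3 of 66 had an unadjusted p under 0.05, all more variable in High, against 3.97%. Robo2, a Slit receptor, lay between 243 and 954 normalised counts in High and between 366 and 610 in Low, with medians of 449 and 459. The centres were alike and the High range was wider at both ends, with High male replicate 1 highest. The deviation differed by 0.12 ± 0.05 (SE, adjusted p = 0.998) and by 0.09 without that library. Unc5b, between 51 and 149 in High and between 72 and 135 in Low, gave 0.11 ± 0.056.

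After group means were removed, some members varied together between mice. Over 2145 pairs of the 66 tested members, the median Pearson r was 0.12. The highest was 0.89, for Plxna3 and Sema4g, and the lowest -0.71, for Ntn4 and Sema4a. The first principal component of the 66 members held 22.3% of their variance. At its positive end were Sema4a (r = 0.87 with the component), Epha8 (0.77), Plxna3 (0.76), Sema4b (0.76) and Unc5a (0.76), and at its negative end Ntn4 (-0.70), Sema5a (-0.65), Unc5c (-0.65) and Sema3c (-0.64). The component was drawn after the data were seen, and its sign is arbitrary.

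The ends of the component differed in base composition. The 8 members nearest the positive end had a transcript GC content between 54.9% and 62.7%, and the 8 nearest the negative end between 42.7% and 51.1%. Across the 66 members, GC content and the correlation with the component had r = 0.68 (Spearman 0.66), given as a description, since genes in the same 48 libraries are not independent. With all values rescaled by the median ratio, the correlation had a size of 0.71. Without the 2 mice highest on the component, Low male replicate 10 and High male replicate 7, it was 0.49, and the component then held 20.1% of the variance. Whether base composition affected the libraries was not tested.

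**Figure D4:**
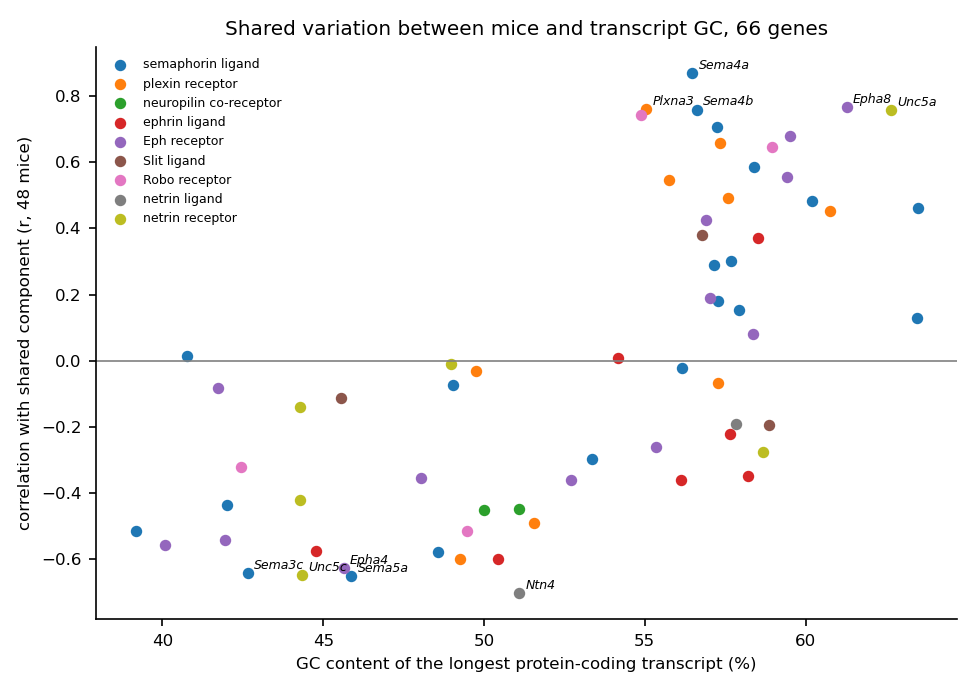
Each point is 1 of 66 guidance genes, placed by the GC content of its longest protein-coding transcript (horizontal, %) and its correlation over 48 mice with the first component of the genes' shared variation (vertical, r). The 8 genes with the highest r lie between 54.9% and 62.7% GC, and the 8 with the lowest between 42.7% and 51.1%.

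To show what lies at the starts of genes that moved in opposite ways along this component, promoters are printed for the 2 most positive and the 2 most negative members with a single RefSeq entry. The sequences are those of RefSeq on GRCm38.p6, from 250 bases before to 50 after the start, 5′ to 3′ on the gene's strand, and capitals mark the dinucleotide CG, which reads the same on both strands. Epha8 lies at chr4:136956767-136957066 (minus strand), Plxna3 at chrX:74328816-74329115, Sema5a at chr15:32244563-32244862 and Ntn4 at chr10:93640799-93641098 (plus strand).
Epha8: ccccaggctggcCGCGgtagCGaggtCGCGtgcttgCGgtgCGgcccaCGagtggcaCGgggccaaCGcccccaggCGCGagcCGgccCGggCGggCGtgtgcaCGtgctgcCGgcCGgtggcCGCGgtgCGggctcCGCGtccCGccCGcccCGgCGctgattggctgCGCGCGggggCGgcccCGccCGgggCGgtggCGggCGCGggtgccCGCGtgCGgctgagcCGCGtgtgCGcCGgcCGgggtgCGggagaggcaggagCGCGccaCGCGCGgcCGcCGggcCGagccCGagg
Plxna3: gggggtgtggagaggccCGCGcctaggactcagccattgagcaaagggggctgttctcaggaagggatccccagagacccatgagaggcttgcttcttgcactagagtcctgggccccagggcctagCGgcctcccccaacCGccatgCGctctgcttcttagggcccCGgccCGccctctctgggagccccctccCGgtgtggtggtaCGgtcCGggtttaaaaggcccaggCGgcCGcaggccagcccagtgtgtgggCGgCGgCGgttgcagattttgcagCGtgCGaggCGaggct
Sema5a: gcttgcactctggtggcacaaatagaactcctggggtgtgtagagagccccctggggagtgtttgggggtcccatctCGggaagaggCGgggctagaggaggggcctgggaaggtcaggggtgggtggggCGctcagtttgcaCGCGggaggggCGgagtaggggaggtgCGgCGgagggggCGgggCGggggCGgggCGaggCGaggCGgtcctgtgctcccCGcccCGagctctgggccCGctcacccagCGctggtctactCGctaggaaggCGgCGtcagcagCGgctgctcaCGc
Ntn4: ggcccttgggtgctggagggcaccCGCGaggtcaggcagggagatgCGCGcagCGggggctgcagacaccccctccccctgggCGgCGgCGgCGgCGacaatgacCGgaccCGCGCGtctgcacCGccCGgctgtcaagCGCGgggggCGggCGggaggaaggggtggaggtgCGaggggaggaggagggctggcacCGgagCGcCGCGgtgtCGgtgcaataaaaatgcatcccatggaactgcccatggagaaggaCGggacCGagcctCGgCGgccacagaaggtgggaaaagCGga

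The Epha8 promoter held 56 CG, Plxna3 18, Sema5a 23 and Ntn4 31. RefSeq entries were found for 58 of 68 members, with 74 promoters, whose median was 20 CG against 7 over all 32851 promoters of the same length; 94.6% of these held at least 1. Both ends of the component thus held promoters above the overall median. For 44 tested members with 1 entry, none on chromosome 18, the number of CG and the correlation with the component had r = 0.02. This count and these 44 members differ from the transcript GC content and the 66 members above, so the correlations were not compared. A CG count describes the letters of this window only.

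Members were also related to 4 measures of each library, after removal of the group means. The same relations were computed for all 15350 tested genes, and the permutation p-values were adjusted (Benjamini-Hochberg) over all 61400 relations of genes and measures. The measures were the marker scores of pyramidal neurons, oligodendrocytes and astrocytes, and the share of signal in last exons, of which the last pair was added after seeing the data. The oligodendrocyte score differed between lines by -0.22 ± 0.0927 (SE, High minus Low; permutation p = 0.0205 with lines permuted within gender, adjusted p = 0.0821 over the 4 measures). The astrocyte score differed by 0.11 ± 0.0532 (permutation p = 0.0485, adjusted p = 0.097). The pyramidal score differed by -0.10 ± 0.199 (permutation p = 0.617, adjusted p = 0.644). The last-exon share ran from 46.8% to 59.6%, with 54.7 ± 2.57% in High and 54.3 ± 2.36% in Low (permutation p = 0.644).

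Higher last-exon share, a measure of how far signal was drawn to the ends of transcripts, went with lower levels of many members. At an adjusted permutation p under 0.05, 30 of 66 members (45.5%) were related to it, all 30 negatively, against 37.7% of all tested genes. Over all genes the called relations were 2626 positive and 3154 negative. The median r was -0.27 over the members and -0.03 over all genes. Sema6b had r = -0.87 (Spearman -0.86), Sema4d, the ligand of Plxnb1, r = -0.84 (-0.75) and Slit3 r = -0.78 (-0.75), each with an adjusted p of 1.7e-04. Each raw p was 1e-05, the smallest that 100000 permutations can give. Without the 2 mice farthest from the median share these were -0.85, -0.77 and -0.73, and in 3 of the 30 the size of r was then under 0.3. By Spearman's rho 26 of the 30 were called, and 29 after rescaling by the median ratio.

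Astrocyte markers gave 24 related members, 18 negative and 6 positive, a share of 36.4% against 36.6% of all tested genes. The number of related members was thus at the level of all genes. Among all genes, 3137 called relations were positive and 2482 negative. After rescaling by the median ratio, 2356 were positive and 2661 negative. Plxna3 had r = -0.72 (Spearman -0.71), Plxnb2 -0.69 (-0.68) and Sema4a -0.68 (-0.67), each with an adjusted p of 1.7e-04. At the other side, Ntn4 had 0.61 (0.56). Plxna3 and Sema4a lay at the positive end of the shared component and Ntn4 at the negative end, and the component itself had r = -0.66 with the astrocyte score. Without the 2 farthest mice the values for Plxna3, Plxnb2 and Sema4a were -0.71, -0.65 and -0.63. By Spearman's rho 22 of the 24 were called, and 21 after rescaling by the median ratio.

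Oligodendrocyte markers gave 4 related members, 2 positive and 2 negative, which was 6.06% against 5.66% of all tested genes. Unc5b had r = 0.67 (Spearman 0.64, adjusted p = 1.7e-04) and 0.57 without the 2 farthest mice. Sema4b had -0.41 (-0.40, adjusted p = 0.0228). Robo2 had 0.37 (adjusted p = 0.0401), but 0.25 without those mice, and its call was lost by Spearman's rho (0.30, adjusted p = 0.13) and after rescaling by the median ratio (adjusted p = 0.0593). Both of these alternatives left 2 related members, Unc5b and Sema4b. Unc5b was also the member with the second smallest p of the female line comparison. All 12 oligodendrocyte markers had a line difference below 0. With the oligodendrocyte score as a covariate, limma called 0 of 66 members in females, as it did without the covariate. This count therefore cannot bear on Unc5b. Whether the markers account for the difference of Unc5b was not tested.

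Pyramidal markers gave 14 related members, all positive, which was 21.2% against 14.1% of all tested genes. Among all genes, 1025 called relations were positive and 1136 negative. The score rested on the 4 of 9 markers that passed the limit for testing, and it was highest in Low male replicate 6. The strongest relation was that of Sema4f, a transmembrane semaphorin, with r = 0.60 (Spearman 0.56, adjusted p = 1.7e-04) and 0.50 without the 2 farthest mice. Plxna1 had 0.48 (adjusted p = 0.00446) and 0.31 without those mice, and by Spearman's rho its call was lost (0.36, adjusted p = 0.0556). Sema7a had 0.45 (Spearman 0.45, adjusted p = 0.00989) and 0.24 without those mice. In 10 of the 14, r was under 0.3 without them, so that most of these relations rested on a few mice. By Spearman's rho 8 of the 14 were called. In all, rho called 15 of 66 members, all positive, or 22.7% against 16% of all tested genes. Plxna1 shares 9.02% of its words of 25 bases with Gm26811.

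**Figure D5:**
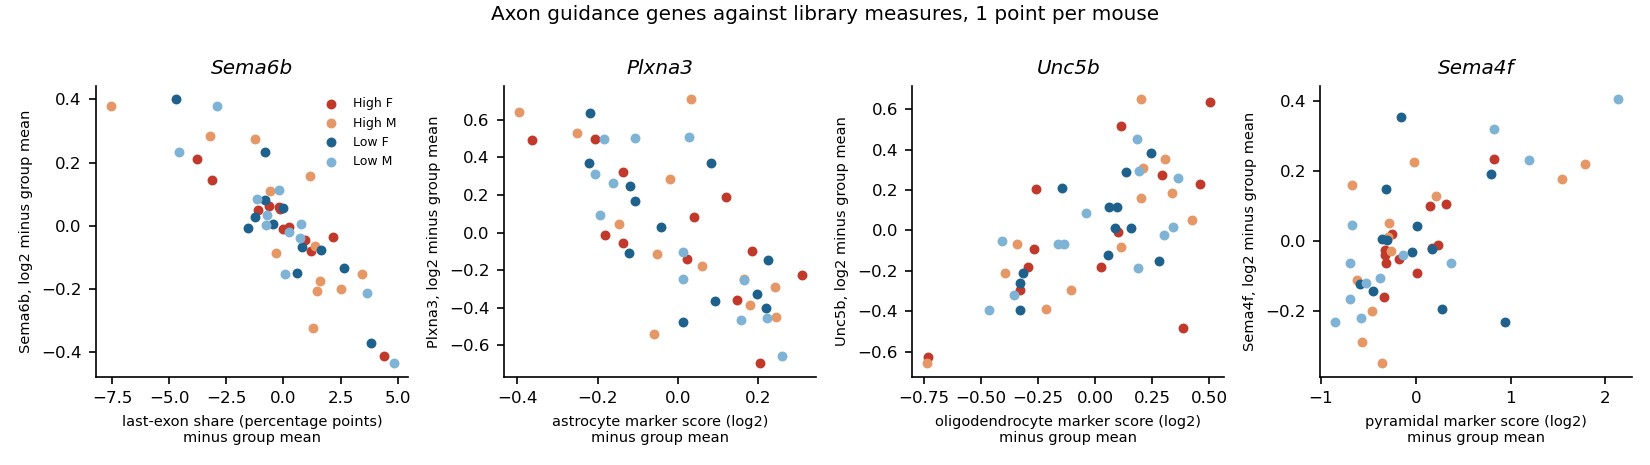
Each panel plots 1 gene (log2 value minus its group mean) against 1 library measure minus its group mean, with 1 point per mouse coloured by group. Sema6b falls as the last-exon share rises (r = -0.87) and Plxna3 with the astrocyte score (-0.72), while Unc5b is higher with the oligodendrocyte score (0.67) and Sema4f with the pyramidal score (0.60).

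The exon table showed where along each gene the signal lay. The last listed exon held the most signal in 63 of 68 members and over 50% of it in 47, with a median share of 65.7%. These counts were not made over all genes. Summed over all annotated genes with several listed exons, last exons held between 46.8% and 59.6% of a library's exon signal. The share reached 96% for Efnb2, 95.8% for Unc5d and 95.8% for Ntn1. In Sema5b, by contrast, exon 19 of 21 held 52.2%, and in Sema6a exon 20 of 21 held 85.7%. Of the 4 members with the smallest p in the line comparison, Unc5d and Ntn1 were thus read almost wholly from their last exon.

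Exon usage was compared between lines, as the log2 line difference of each exon against that of the other exons of its gene. By limma's diffSplice, 0 of 66 members were called, against 0.51% of all genes tested, and 2 of 66 had an unadjusted Simes p under 0.05, against 5.32%. For Ephb6, exon 2 of 18 (start 41562643 on chromosome 6) lay between 0 and 14 normalised counts in High and between 1 and 17 in Low, with medians of 4 and 8. Ranges overlapped and the Simes p of the gene was 0.0405 (adjusted p = 0.861). For Sema6a, exon 16 of 21 (start 47440774 on chromosome 18) lay between 0 and 2 in High and between 0 and 7 in Low, with a Simes p of 0.0406. Values so low make both uncertain. With exons weighted by their own spread, the Simes p of Ephb6 rose to 0.54 and that of Sema6a fell to 0.00816. This weighted fit was added after simulated data had shown too many calls. It called 7 instead of 75 genes in all, none of them a member.

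Further genes of the pathway were given by a list of other cues and co-receptors and a list of intracellular transducers. In the line comparison, 0 of 28 tested cues and co-receptors of 34, and 0 of 53 transducers, were called by limma. At an unadjusted p under 0.05 there were 2 of 28, 1 higher and 1 lower in High, and 3 of 53, 2 higher and 1 lower, or 7.14% and 5.66% against 9.07% of all genes. Over all genes, 0.28% were called. Rtn4rl1, a Nogo receptor homologue, gave 0.12 ± 0.042 on the log2 scale (SE, limma adjusted p = 0.308), and Dpysl3, a collapsin response mediator downstream of semaphorins, 0.19 ± 0.073 (adjusted p = 0.347). Cntn2, a contactin of axonal membranes, gave -0.21 ± 0.092 (adjusted p = 0.457) and Chn2, a chimaerin that inactivates Rac, 0.12 ± 0.058 (adjusted p = 0.508). The medians were -0.01 for cues and co-receptors and -0.0033 for transducers, against -0.0028 over all genes.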

How the data were processed

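The 48 libraries of poly(A) RNA came from 1 mouse each, in 4 groups of 12 by line and gender, as the labels give them. Mice were numbered within groups in order of listing, these numbers are only names, and nothing in the labels pairs mice. The authors deposited a gene table and an exon table; the deposited unit was taken as a score, since the tables are named as normalised counts and hold rounded whole numbers. Tools named in the submitters' processing notes, without role or order, were STAR 2.4.0, edgeR 3.4.2, R 3.0.2, FastQC and CASAVA, and the build was mm9. How reads were counted and normalised, the strand setting and the annotation release are not given in the sources used here, so reads of a gene and of an antisense partner cannot be told apart. The depth in reads behind a value is unknown, and only the column totals of normalised counts are given.

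Symbols, merged exon lengths, transcripts and words of 25 bases came from GENCODE M21 (GRCm38) by gene identifier, matching 32897 of 37620 identifiers and all 68 members. Lengths from the exon table had been planned, but it lists exon starts only. Tests were made with limma 3.58.1 (R 4.3.3) on log2(value + 0.5 ppm), with a mean-variance trend, 1 mean per group and all 48 libraries in 1 fit. Genes at 1 ppm of the mean column total in at least 12 libraries were kept (15350), and p-values were adjusted by Benjamini-Hochberg over all of them. Fold changes on this scale understate the change of low genes. Exon usage was tested with diffSplice on exons at 0.1 ppm in 12 or more libraries (pseudocount 0.05 ppm). It made too many calls on simulated data in which exons of a gene differed in noise, so a fit weighted by each exon's spread is given beside it. Correlations over mice and line differences of library measures used permutation tests, two-sided, with 100000 resamples, and p-values of correlations were adjusted over all tested genes and measures instead of the planned member relations alone (numpy 2.4.6, scipy 1.17.1, pandas 2.3.3). Values were read with data.table (version 1.17.8) and figures drawn with matplotlib 3.10.9.

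The members and all lists were chosen with earlier results of these data known. Genes were named by rule: the highest and lowest member of each family per kb, the 4 members with the smallest p in the line, single-gender and gender comparisons (2 for variability and for line by gender), the 5 largest and 3 smallest spreads, the 2 smallest p for exon usage, the 3 largest r per measure, the X-linked members, and the 2 smallest p from each pathway list. The members named for the shared component, and the promoters, were picked with their values known. Alternatives were other pseudocounts, filters and scalings, library weights, marker scores or last-exon share as covariates, summed exons, and fits without single libraries.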

Additional observations from a re-analysis of the deposited data

How the results depend on the processing

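No paired analysis was possible because the labels give no replicate numbers shared between groups. Every other pseudocount, filter, scaling, covariate, weighting and left-out library that was run gave 0 called members in the line, female, male and line-by-gender comparisons. The exception among genders was the astrocyte score as a covariate, added after seeing the data: it called 1 member, Plxnb3 (0.37), and 83 genes in all instead of 12. The gender difference of Efnb1 changed sign at 0.0049 with the pyramidal score as a covariate and at 0.018 without High male replicate 1 (it was -0.041 without High male replicate 7 and Low male replicate 10). Rescaling by the median ratio, or Spearman's rho, lowered the members related to oligodendrocyte markers from 4 to 2, and adjustment over the 264 member relations alone, as first planned, gave 5. Over all genes the line count of 43 became 80 with library weights, 77 with the last-exon share and 19 with the astrocyte score as a covariate, and the female count of 4 became 7 with library weights and 2 without a filter or with the last-exon share. Members at an unadjusted p under 0.05 in the line comparison numbered 8 instead of 4 with the oligodendrocyte score, alone or with the pyramidal score, and with the last-exon share. In males they numbered 1 instead of 4 without High male replicate 1 and with the astrocyte score, in females 1 with library weights or a 5 ppm filter and 4 with the last-exon share, and by gender 8 with library weights, 11 with the astrocyte score and 9 without High male replicate 7 and Low male replicate 10. Weighted exons gave 7 genes called for exon usage instead of 75, and Sema6a had a Simes p of 0.643 with a 0.5 ppm filter. The cause was not tested. Low values limit Efna4 and Epha1, which were not tested, and Sema3b, whose size moved with the pseudocount.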
